A study of Mus musculus with 9 samples.

Results

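The 10 genes Clec4f, Vsig4, Cd5l, Marco, Timd4, Adgre1, Cd68, Csf1r, Cd163 and Lyz2 mark Kupffer cells and other macrophages, and were followed in the liver of mice fed diets of different fat and protein content. They were taken as a list of gene symbols. Each was found in the array annotation with 1 probe set, so that the list makes up 10 of the 19938 genes with a value. Male C57BL/6J mice ate a low fat-normal protein (LF-NP) run-in diet and were then killed as the week 0 reference, or were fed 1 of 4 diets for 1 or 12 weeks. The diets were high fat-high protein (HF-HP), high fat-normal protein (HF-NP), low fat-high protein (LF-HP) and LF-NP. Fat supplied 35% of the energy of HF diets and 10% of that of LF diets, and protein 50% of that of HP diets and 15% of that of NP diets. Carbohydrate made up the remaining 15% of the energy in HF-HP, 50% in HF-NP, 40% in LF-HP and 75% in LF-NP, so that both fat and protein took the place of carbohydrate. The mice were 12 weeks old at week 0, 13 weeks old after 1 week and 22 weeks old after 12 weeks of feeding, so age and time on the diet cannot be told apart.

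Each of the 9 groups gave 1 pool of liver RNA from 5 mice and 1 Affymetrix Mouse Gene 1.0 ST array, which reads a gene with probes along its exons. Values are log2 signals by robust multiarray analysis (RMA), in which a difference of 1 is a doubling of signal. A pool averages its mice, so the spread behind each test is that between pools of different diet and week, and nothing in it measures the spread between mice. The 8 diet pools were fitted in limma with fat, protein and week as additive terms, and a gene passed at an adjusted p under 0.05 (Benjamini-Hochberg over 19938 genes). That fit has no interaction term, so a fat difference that depends on the protein level adds to the spread behind its tests. The arrays correlated at 0.988 to 0.993 over all probe sets. The hepatocyte product albumin (Alb) averaged 13.88 ± 0.12 in HF pools and 13.88 ± 0.14 in LF pools (SD, n = 4 each). Within a protein level, the HF minus LF difference of Alb at 1 and 12 weeks was -0.06 and -0.25 on HP diets. On NP diets it was 0.17 and 0.15. The arrays read whole liver, so fewer macrophages and less of these RNAs per macrophage cannot be told apart.

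Kupffer cells are the macrophages that live in the liver sinusoids. They take up bacteria, aged red blood cells, dead cells and modified lipoproteins from the blood, and their survival depends on signalling through the receptor Csf1r. In the mouse, Clec4f, Vsig4, Timd4, Cd5l and Marco are typical of resident Kupffer cells, while Adgre1, Cd68, Csf1r and Lyz2 are shared with other macrophages, and Lyz2 also with monocytes and neutrophils.

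All 10 genes averaged higher in HF than in LF pools, by 0.07 for Marco to 0.41 for Adgre1 on the log2 scale, with a median of 0.32 against 0.00 over all genes. This median was 0.18 without the HF-HP pool of 1 week. None of these differences passed the test (0 of 10, and 0% of all genes, adjusted p = 0.999 in limma for each member). A difference above 0 was found for 50.4% of all genes. Pools matched for protein level and week gave values that depended on the protein level. Between HF-HP and LF-HP pools the medians of the 10 differences were 0.81 at 1 week and 0.51 at 12 weeks, whereas between HF-NP and LF-NP pools they were -0.07 and -0.02. HF-HP exceeded LF-HP at both weeks for 10 of the 10 genes, which held for 25.8% of all genes. HF-NP exceeded LF-NP at both weeks for 1 of the 10, Cd163, against 17.6% of all genes.

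**Figure D1:**
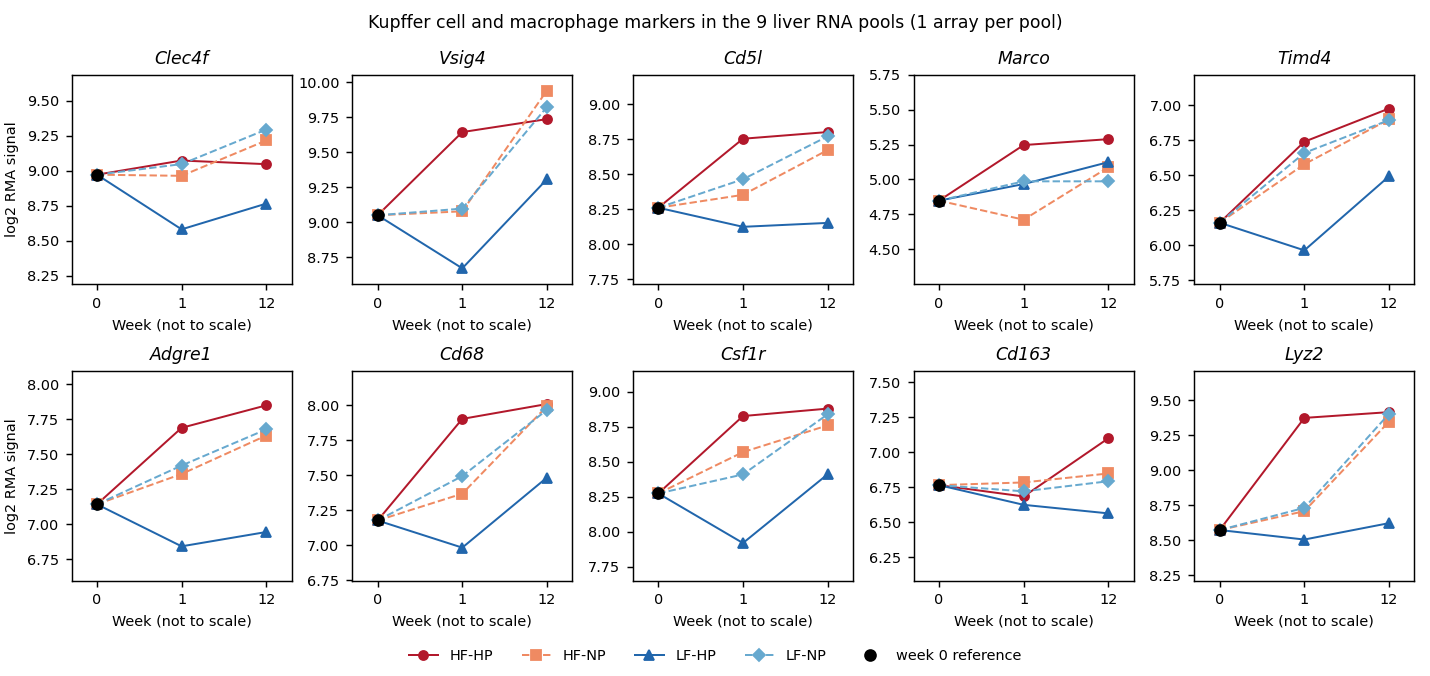
Log2 RMA signal (vertical axis, of equal span but its own range for each gene) of each marker in each liver RNA pool, against week (0, 1 and 12, not to scale). Each point is 1 array of 1 pool of 5 mice, lines join the pools of a diet, and no error bar can be given for 1 array. LF-HP has the lowest point of the 4 diets at both weeks for 9 of the 10 genes, Marco being the other.

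Clec4f encodes a C-type lectin that, in the mouse, is nearly confined to Kupffer cells. Its log2 signal was 9.07 and 9.05 in the HF-HP pools at 1 and 12 weeks and 8.96 and 9.22 in the HF-NP pools, against 8.58 and 8.77 in the LF-HP pools, 9.05 and 9.30 in the LF-NP pools and 8.97 in the week 0 pool. Both LF-HP pools lay below all other pools, while the HF and LF pools as a whole overlapped. The HF and LF means were 9.08 ± 0.11 and 8.92 ± 0.31 (SD, n = 4 each), a difference of 0.15 ± 0.11 (SE).

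Vsig4 encodes a complement receptor with which Kupffer cells capture bacteria coated with fragments of complement C3. The HF-HP pools gave 9.64 and 9.74 and the HF-NP pools 9.08 and 9.94, against 8.67 and 9.31 in LF-HP pools, 9.10 and 9.82 in LF-NP pools and 9.05 at week 0. Among the pools of 1 week HF-HP stood above the other diets, and at 12 weeks HF-HP, HF-NP and LF-NP lay close together above LF-HP. The HF mean of 9.60 ± 0.37 and the LF mean of 9.23 ± 0.48 differed by 0.38 ± 0.17 (SE, unadjusted p = 0.0574 in limma), with overlapping pools.

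Timd4 encodes a receptor for phosphatidylserine on dying cells and is a marker of long-lived resident Kupffer cells. Its signal was 6.74 and 6.98 in HF-HP and 6.58 and 6.90 in HF-NP pools, against 5.96 and 6.49 in LF-HP pools, 6.66 and 6.89 in LF-NP pools and 6.16 at week 0. The LF-HP pool of 1 week was the only diet pool below the week 0 pool, and the HF and LF pools overlapped. HF pools averaged 6.80 ± 0.18 and LF pools 6.50 ± 0.40, a difference of 0.30 ± 0.14 (SE).

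Cd5l encodes a protein that tissue macrophages secrete into the blood. It gave 8.76 and 8.80 in HF-HP and 8.35 and 8.67 in HF-NP pools, against 8.13 and 8.15 in LF-HP pools, 8.47 and 8.77 in LF-NP pools and 8.26 at week 0. The LF-HP pools were the 2 lowest of the 9, and the LF-NP pools overlapped those of HF. The HF mean of 8.65 ± 0.20 exceeded the LF mean of 8.38 ± 0.30 by 0.27 ± 0.15 (SE).

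Promoter sequence is shown for members whose signals moved together in these pools, because macrophage promoters are known targets of PU.1, the transcription factor encoded by Spi1. The windows run from 250 bases before to 50 bases after the gene start in RefSeq's annotation of the mouse genome build GRCm38.p6, on the strand of the gene. The letters GAGGAA, or TTCCTC where they lie on the other strand, are a core of the sequence that PU.1 binds and are in capitals. The resident marker Vsig4 (chrX:96293389-96293688, minus strand), the secreted Cd5l (chr3:87357631-87357930, plus strand) and the pan-macrophage Cd68 (chr11:69666121-69666420, minus strand) hold these letters. Clec4f (chr6:83656067-83656366, minus strand) is shown as a Kupffer cell gene whose window does not.
Vsig4: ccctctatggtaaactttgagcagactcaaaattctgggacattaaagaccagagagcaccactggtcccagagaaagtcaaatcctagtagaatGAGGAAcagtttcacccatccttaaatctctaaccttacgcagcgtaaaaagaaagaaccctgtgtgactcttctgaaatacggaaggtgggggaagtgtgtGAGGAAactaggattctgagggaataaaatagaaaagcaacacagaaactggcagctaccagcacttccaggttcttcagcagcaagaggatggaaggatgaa
Cd5l: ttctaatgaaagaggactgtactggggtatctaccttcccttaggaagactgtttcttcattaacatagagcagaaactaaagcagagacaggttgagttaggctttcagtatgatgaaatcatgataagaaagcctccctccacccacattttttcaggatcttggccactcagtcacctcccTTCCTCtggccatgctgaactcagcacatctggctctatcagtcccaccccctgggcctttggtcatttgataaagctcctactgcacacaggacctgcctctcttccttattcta
Cd68: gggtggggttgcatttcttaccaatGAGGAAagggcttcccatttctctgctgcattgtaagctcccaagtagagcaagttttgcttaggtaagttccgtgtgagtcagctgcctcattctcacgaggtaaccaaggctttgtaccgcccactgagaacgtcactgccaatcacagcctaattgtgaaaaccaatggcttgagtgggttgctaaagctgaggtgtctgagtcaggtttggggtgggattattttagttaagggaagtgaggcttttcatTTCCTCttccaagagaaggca
Clec4f: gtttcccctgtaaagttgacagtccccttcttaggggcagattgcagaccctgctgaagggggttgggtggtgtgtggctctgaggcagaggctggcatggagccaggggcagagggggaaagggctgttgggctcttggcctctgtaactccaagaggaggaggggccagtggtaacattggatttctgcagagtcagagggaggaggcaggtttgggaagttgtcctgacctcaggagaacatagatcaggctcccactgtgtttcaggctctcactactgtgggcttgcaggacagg

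Counted from the gene start, the letters begin at -155 and -53 in Vsig4, at -66 in Cd5l and at -225 and 30 in Cd68, and they also occur at -146 in Marco. The windows of Timd4, Cd163 and Lyz2 hold none, so that 4 of 8 members searched have a match, against 28.3% of 32851 promoter windows of this length. For Timd4 (chr11:46810549-46810848) and Cd163 (chr6:124304401-124304700) the window is placed by a start some bases downstream of the first base of the gene. A match is a description of the letters and does not show binding. The windows of Adgre1 and Csf1r were not used here. Spi1 itself had log2 signals of 6.85 and 6.98 in HF-HP and 6.85 and 7.23 in HF-NP pools, against 6.11 and 6.75 in LF-HP pools, 6.85 and 7.15 in LF-NP pools and 6.84 at week 0. As for most of the markers, its lowest values were those of the LF-HP pools. The HF minus LF difference of Spi1 was 0.26 ± 0.12 (SE, unadjusted p = 0.057 and adjusted p = 0.999 in limma). HP minus NP was larger for this gene, at -0.35 ± 0.12 (SE, unadjusted p = 0.0183 and adjusted p = 0.339 in limma). On HF diets, where the mean of most markers was above 0, HP minus NP of Spi1 was 0.00 at 1 week and -0.25 at 12 weeks. The HF-HP, HF-NP and LF-NP pools of 1 week have exactly the same value for Spi1.

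Marco and Cd163, 2 scavenger receptors of macrophages, followed the other members least closely. Marco, which binds bacteria and modified lipoproteins, gave 5.25 and 5.29 in HF-HP and 4.71 and 5.09 in HF-NP pools, against 4.97 and 5.12 in LF-HP pools, 4.99 and 4.99 in LF-NP pools and 4.85 at week 0. The HF-NP pool of 1 week was the lowest of the 9, and the 2 HF-HP pools the highest. The LF-NP pools of 1 and 12 weeks have exactly the same value for Marco. Its HF and LF means of 5.08 ± 0.26 and 5.02 ± 0.07 differed by 0.07 ± 0.09 (SE). Cd163, which takes up haemoglobin bound to haptoglobin, gave 6.68 and 7.10 in HF-HP and 6.78 and 6.85 in HF-NP pools, against 6.62 and 6.56 in LF-HP pools, 6.72 and 6.79 in LF-NP pools and 6.77 at week 0. The HF-HP pool of 12 weeks stood above the other pools. The HF and LF means of Cd163 were 6.85 ± 0.18 and 6.68 ± 0.10, a difference of 0.18 ± 0.09 (SE), which was 0.08 without that pool. Cd163 was the only member above 0 in all 4 comparisons of an HF with an LF pool of the same protein level and week (3.47% of all genes), with differences of 0.06 and 0.54 on HP and 0.06 and 0.06 on NP diets at 1 and 12 weeks.

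Adgre1 encodes F4/80, the adhesion receptor by which mouse macrophages are commonly stained. Its log2 signal was 7.69 and 7.85 in HF-HP and 7.36 and 7.63 in HF-NP pools, against 6.84 and 6.94 in LF-HP pools, 7.42 and 7.68 in LF-NP pools and 7.14 at week 0. The LF-HP pools lay below all others and were the only diet pools below week 0. The HF mean of 7.63 ± 0.20 exceeded the LF mean of 7.22 ± 0.40 by 0.41 ± 0.18 (SE, unadjusted p = 0.0518 in limma).

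Csf1r, the receptor tyrosine kinase for Csf1 and Il34, gave 8.83 and 8.88 in HF-HP and 8.57 and 8.76 in HF-NP pools, against 7.92 and 8.41 in LF-HP pools, 8.41 and 8.84 in LF-NP pools and 8.27 at week 0. The HF pools spanned a narrow range, and the LF-NP pool of 12 weeks lay within it. The means were 8.76 ± 0.14 in HF and 8.39 ± 0.38 in LF pools, a difference of 0.36 ± 0.14 (SE, 95% confidence interval 0.03 to 0.70, 1.29-fold). Csf1r was the 1 member called at an unadjusted threshold of 0.05 for HF minus LF (unadjusted p = 0.0367, adjusted p = 0.999 in limma), against 1.8% of all genes as higher and 1.53% as lower. That count became 0 after leaving out any 1 of the HF-HP or LF-HP pools, 2 without the LF-NP pool of 1 week, 3 without the HF-NP pool of 12 weeks, 6 without the LF-NP pool of 12 weeks and 7 without the HF-NP pool of 1 week. All of these were higher in HF pools, and in the same fits 1.18% to 3% of all genes were called as higher.

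Cd68 encodes a glycoprotein of lysosomes and endosomes in phagocytes. It gave 7.90 and 8.01 in HF-HP and 7.37 and 7.99 in HF-NP pools, against 6.98 and 7.48 in LF-HP pools, 7.49 and 7.97 in LF-NP pools and 7.18 at week 0. At 12 weeks the HF-HP, HF-NP and LF-NP pools nearly coincided above LF-HP. The HF and LF means of 7.82 ± 0.30 and 7.48 ± 0.40 differed by 0.34 ± 0.17 (SE). Lyz2, the lysozyme of myeloid cells, gave 9.37 and 9.42 in HF-HP and 8.71 and 9.35 in HF-NP pools, against 8.50 and 8.62 in LF-HP pools, 8.73 and 9.40 in LF-NP pools and 8.57 at week 0. The HF-HP pool of 1 week was already at the level that HF-NP and LF-NP pools had at 12 weeks, and the LF-HP pool of 12 weeks was not. The HF mean of 9.21 ± 0.34 exceeded the LF mean of 8.82 ± 0.40 by 0.40 ± 0.20 (SE). The near-identical gene Lyz1 has a probe set of its own, and probes of the pair may read both RNAs. For Lyz1, HF minus LF was 0.24 on HP and 0.03 on NP diets.

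Whether the HF minus LF difference differed between HP and NP diets was tested as an interaction of fat and protein. The difference of the differences was above 0 for 10 of the 10 genes, between 0.24 for Cd163 and 0.93 for Adgre1, with a median of 0.66. Over all genes the median was 0.03 and 56.6% lay above 0. The interaction passed for 0 of 10 members and for 0% of all genes, and the smallest adjusted p among the members was 0.453, for Adgre1. At an unadjusted p under 0.05 in limma, 8 of the 10 had a positive interaction, against 4.79% of all genes with a positive and 2.23% with a negative interaction, Marco and Cd163 being the others. This count was 5 without the HF-NP pool of 1 week or the LF-NP pool of 12 weeks, and between 6 and 9 without each of the other pools in turn, while 2.67% to 7.2% of all genes had a positive interaction at that threshold in these fits. For the 2 members outside the count single pools mattered most. The interaction of Cd163 was 0.043 with HF-HP of 12 weeks left out and 0.12 without the LF-HP pool of 12 weeks, but 0.43 with HF-HP and 0.36 with LF-HP of 1 week left out. That of Marco was 0.31 in all 8 pools and 0.15 without the HF-NP pool of 1 week.

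**Figure D2:**
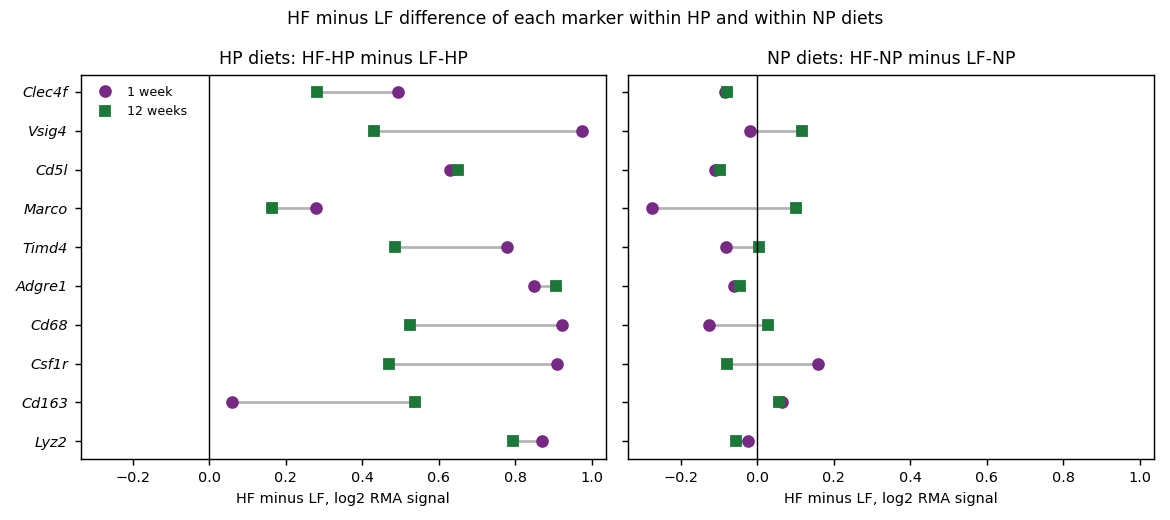
HF minus LF difference in log2 RMA signal (horizontal axis) of each marker between pools of the same week, on HP diets (left) and NP diets (right). Each point compares 2 arrays, circles are 1 week and squares 12 weeks, and no error bar can be given. Points of HP diets lie between 0.06 and 0.97, those of NP diets between -0.27 and 0.16.

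Adgre1 had the interaction with the smallest p among the members, at 0.93 ± 0.12 (SE, 95% confidence interval 0.65 to 1.21, unadjusted p = 0.000136 in limma). HF-HP exceeded LF-HP pools by 0.88 on average, or 1.84-fold, with 0.85 at 1 week and 0.91 at 12 weeks. HF-NP and LF-NP pools differed by -0.06 at 1 week and -0.04 at 12 weeks. The difference was thus of nearly the same size at both times on either protein level. Cd5l was similar in this, with 0.63 and 0.65 on HP diets and -0.11 and -0.10 on NP diets, an interaction of 0.74 ± 0.15 (SE, unadjusted p = 0.0019 and adjusted p = 0.541 in limma).

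For Lyz2 the HF minus LF difference was 0.87 and 0.79 on HP diets at 1 and 12 weeks, and -0.02 and -0.06 on NP diets. Its interaction was 0.87 ± 0.25 (SE, unadjusted p = 0.0107 and adjusted p = 0.678 in limma). Cd68, Csf1r, Vsig4, Timd4 and Clec4f had larger values on HP diets at 1 week than at 12 weeks. These were 0.92 and 0.53 for Cd68, 0.91 and 0.47 for Csf1r, 0.97 and 0.43 for Vsig4, 0.78 and 0.48 for Timd4 and 0.49 and 0.28 for Clec4f. The interactions of fat with protein for these 5 genes lay between 0.47 ± 0.14 for Clec4f and 0.77 ± 0.18 for Cd68 (SE, adjusted p between 0.547 and 0.706 in limma). That of Vsig4 was 0.65 in all 8 pools and 0.33 with the HF-HP pool of 1 week left out. Whether the fat difference itself differed between the weeks was tested as an interaction of fat and week, which ran from -0.34 for Csf1r to 0.23 for Cd163. It passed for 0 of the 10 (0% of all genes, adjusted p = 1 in limma for each). At an unadjusted p under 0.05 there were also 0 of the 10, against 1.13% of all genes for a positive and 1.1% for a negative interaction. Without the HF-NP pool of 12 weeks 1 member had a positive interaction (3.89% of all genes), and without that of 1 week 1 had a negative one (1.65% of all genes).

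The same 8 pools can be read as HP against NP, a comparison that shares its pools with the one before. HP minus NP lay between -0.26 for Clec4f and 0.21 for Marco, with a median of -0.12. That median was -0.28 without the HF-HP and -0.25 without the HF-NP pool of 1 week, -0.068 without the LF-NP and -0.050 without the LF-HP pool of 1 week, and -0.023 without the LF-NP and -0.042 without the LF-HP pool of 12 weeks. The difference was above 0 for 1 of the 10 (48.1% of all genes) and passed for 0 of the 10 (0.171% of all genes passed as higher and 0.271% as lower). Clec4f averaged 8.87 ± 0.24 in HP and 9.13 ± 0.15 in NP pools and was the 1 member lower at an unadjusted threshold of 0.05 (unadjusted p = 0.0408, adjusted p = 0.455 in limma), against 5.66% of all genes as lower and 4.59% as higher. The count of lower members was 0 without the HF-NP pool of 12 weeks or any 1 of the LF pools, and leaving out the HF-HP pool of 1 week made it 2, with 3.96% to 6.89% of all genes as lower in the fits without single pools. Without the LF-NP or LF-HP pool of 1 week, 1 member, Marco, was higher at that threshold, as were 3.86% of all genes in either fit. Marco averaged 5.16 ± 0.14 in HP and 4.94 ± 0.16 in NP pools (unadjusted p = 0.051, adjusted p = 0.49 in limma). The sign differed by fat level for most members. LF-HP was below LF-NP at both weeks for 9 of the 10 genes, Marco being the other, against 30.2% of all genes. The mean difference on LF diets was -0.66 for Adgre1, -0.55 for Timd4 and -0.50 for Clec4f, Lyz2 and Cd68, with a median of -0.49 over the 10. On HF diets the mean HP minus NP difference was above 0 for 9 of the 10, against 51% of all genes, with a median of 0.23, and the highest values were 0.37 for Lyz2 and for Marco. These means over the weeks hide differences between 1 and 12 weeks. The sign changed for Vsig4 (0.57 and -0.20), Clec4f (0.11 and -0.17) and Cd163 (-0.10 and 0.25). The other members stayed above 0, though Lyz2 went from 0.67 to 0.07 and Cd68 from 0.53 to 0.02.

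After these values were seen, the order of the 4 diets was counted. LF-HP was the lowest of the 4 diets at both weeks for 9 of the 10 genes, against 8.74% of all genes. For 6 of them, Clec4f, Cd5l, Timd4, Adgre1, Cd163 and Lyz2, both LF-HP pools lay below the other 6 diet pools (4.94% of all genes). The LF-HP pool of 1 week was the lowest of the 8 diet pools for 8 of the 10 (11.7% of all genes). The HF and LF pools as such did not separate for any member (0 of 10, against 0.341% of all genes with all HF pools above all LF pools).

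The weeks were compared in the same fit. The 12 week pools averaged above the 1 week pools for 10 of the 10 genes (45.4% of all genes), by 0.12 for Cd163 to 0.58 for Vsig4, and 0 of the 10 passed (0.00502% of all genes). Vsig4 averaged 9.70 ± 0.28 at 12 weeks and 9.12 ± 0.40 at 1 week (difference 0.58 ± 0.17 SE, unadjusted p = 0.0094, adjusted p = 0.564 in limma). With Cd68 and Timd4 it made up the 3 members that were higher at an unadjusted p under 0.05, against 2.42% of all genes as higher and 5.3% as lower. This count was 1 without the LF-HP or HF-NP pool of 1 week or the LF-NP or HF-HP pool of 12 weeks, and 6 if HF-HP of 1 week was left out, with 1.68% to 4.89% of all genes as higher in the fits without single pools. The median difference of the 10 was 0.25, and became 0.15 without the LF-HP or HF-NP pool of 1 week, 0.16 without the LF-NP pool of 12 weeks and 0.38 with HF-HP of 1 week left out. On all 4 diets the 12 week pool was above the 1 week pool for 7 of the 10, Vsig4, Cd5l, Timd4, Adgre1, Cd68, Csf1r and Lyz2, against 5.35% of all genes. The median difference was 0.07 on HF-HP, 0.32 on HF-NP, 0.17 on LF-HP and 0.28 on LF-NP.

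Set against the single week 0 pool, which allows no test, the median of the 10 genes was 0.55 in the HF-HP pool of 1 week, 0.11 in HF-NP, -0.20 in LF-HP and 0.15 in LF-NP. After 12 weeks it was 0.65 in HF-HP, 0.49 in HF-NP, 0.09 in LF-HP and 0.55 in LF-NP. HF-HP was thus the furthest above week 0 at 1 week, and LF-HP the nearest to it at 12 weeks. In the pools of 1 week, 9 of the 10 genes were above week 0 on HF-HP (49.7% of all genes), 8 on HF-NP (50.7%), 1 on LF-HP (46.3%) and 9 on LF-NP (52.2%), and the 1 on LF-HP was Marco. After 12 weeks it was 10 on HF-HP (47% of all genes), 10 on HF-NP (44.5%), 6 on LF-HP (45.8%) and 10 on LF-NP (48.6%). All 8 differences share 1 reference array.

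Further genes of macrophages were read from lists made in the same way. Of 13 other genes enriched in Kupffer cells, 13 were above 0 for HF minus LF (median 0.18), against 50.4% of all genes. At an unadjusted p under 0.05 in limma 2 were higher (1.8% of all genes), and 0 passed. Their HF minus LF median was 0.30 on HP diets and -0.0012 on NP diets. The interaction of fat and protein was above 0 for 12 of the 13 (56.6% of all genes), 5 of them at an unadjusted p under 0.05 (4.79% of all genes). C1qa, a chain of complement C1q, averaged 8.04 ± 0.09 in HF and 7.86 ± 0.21 in LF pools (adjusted p = 0.999 in limma). Of 12 general macrophage and myeloid genes, 12 were above 0 for HF minus LF (median 0.26), 4 were higher at an unadjusted p under 0.05 and 0 passed. The medians were 0.47 on HP and 0.05 on NP diets. Their interaction was above 0 for 10 of the 12, 6 of them at an unadjusted p under 0.05. Mpeg1, a pore-forming protein of macrophages, differed little, with 0.04 on HP and 0.11 on NP diets. Of 8 macrophage transcription factors with a value, 6 were above 0 for HF minus LF (median 0.07), and 8 had an interaction of fat and protein above 0, 2 of them at an unadjusted p under 0.05.

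The ligand Csf1 had an HF minus LF difference of the other sign from its receptor. It averaged 6.55 ± 0.18 in HF and 6.72 ± 0.31 in LF pools (difference -0.17 ± 0.08 SE, adjusted p = 0.999 in limma), and 6.45 ± 0.09 in HP and 6.82 ± 0.22 in NP pools (difference -0.38 ± 0.08 SE, unadjusted p = 0.002 and adjusted p = 0.144 in limma). Tyrobp and Fcer1g, adaptors that carry the signal of several myeloid receptors, had HF minus LF differences of 0.73 and 0.88 on HP and -0.14 and 0.18 on NP diets. Of 6 genes of lipid-associated macrophages with a value, a state described in fatty tissue, 4 were above 0 for HF minus LF (median 0.06), 1 was higher and 1 lower at an unadjusted p under 0.05 in limma, and 0 passed. Their medians were 0.24 on HP and -0.21 on NP diets. The interaction of fat and protein was above 0 for 6 of 6 (median 0.44), against 56.6% of all genes. For 2 of them, Gpnmb and Cd9, it had an unadjusted p under 0.05 (4.79% of all genes). Trem2, a lipid-sensing receptor, had HF minus LF differences of 0.20 on HP and -0.08 on NP diets. On HP diets the difference of Trem2 was 0.33 at 1 week and 0.06 at 12 weeks. The 4 LF diet pools have exactly the same value for Trem2, so its signal resolved no difference between them. Fabp5, a fatty acid binding protein also named after its values were seen, was the lower gene, with a difference of -0.63 ± 0.17 (SE, unadjusted p = 0.0075 and adjusted p = 0.999 in limma). Lpl was the higher one, with 0.51. Gpnmb gave 6.02 and 5.22 in HF-HP and 4.01 and 4.23 in HF-NP pools, against 4.39 and 4.33 in LF-HP pools, 4.37 and 5.66 in LF-NP pools and 4.40 at week 0. It was singled out after its values were seen, and its interaction was 2.16 ± 0.59 (SE, unadjusted p = 0.0092 and adjusted p = 0.674 in limma). Lpl, the lipoprotein lipase that macrophages and other cells make, was the only gene of the 18 lists to pass for fat, protein, week or the 2 interactions. It rose in HP pools to 7.35 ± 0.37, against 6.61 ± 0.35 in NP pools (difference 0.75 ± 0.11 SE, adjusted p = 0.0499 in limma), and did not pass without any 1 of the 8 pools (smallest adjusted p = 0.063 without the LF-NP pool of 12 weeks). Macrophage cytokines and polarisation genes had HF minus LF medians of -0.06 on HP and -0.03 on NP diets over 8 genes, with Il1b at 0.03. Their mean log2 signal was only 4.14 to 4.25 over the pools, against a median of 5.85 over all genes. At so low a signal a change may be missed. Il1b was lower in HP than in NP pools by 0.21 ± 0.08 (SE, unadjusted p = 0.0266 and adjusted p = 0.39 in limma). Scavenger and efferocytosis receptors had HF minus LF medians of 0.14 on HP and 0.03 on NP diets over 8 genes, and monocyte genes had -0.0014 and -0.11 over 5. Over both protein levels 3 of these 5 monocyte genes were above 0 (median 0.10), against 50.4% of all genes. The chemokine receptor Ccr2, 1 of them, gave a low signal of 3.75 ± 0.05 in HF and 3.54 ± 0.19 in LF pools. Its difference was 0.21 ± 0.09 (SE, unadjusted p = 0.0547 and adjusted p = 0.999 in limma).

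**Figure D3:**
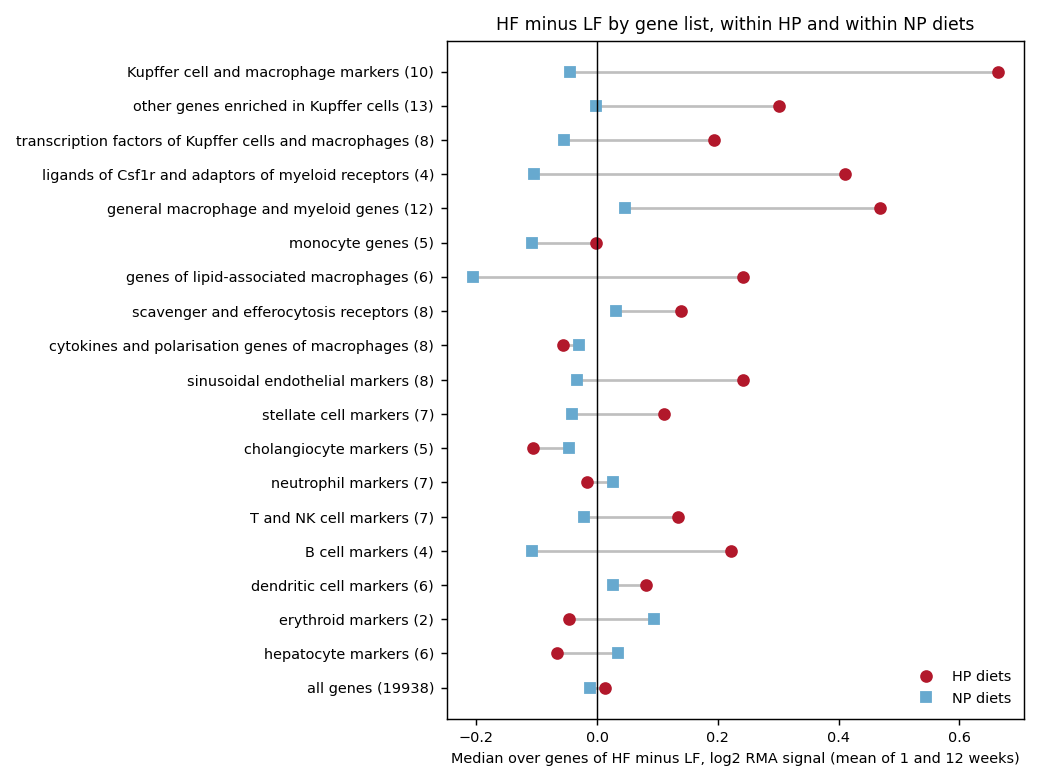
Median over the genes of each list (number of genes with a value in brackets) of the HF minus LF difference in log2 RMA signal, averaged over 1 and 12 weeks, on HP diets (circles) and NP diets (squares). The 10 Kupffer cell and macrophage markers have medians of 0.66 and -0.04, and the medians of all 19938 genes are 0.01 and -0.01.

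Markers of other liver cells were read for the same contrast. All 8 sinusoidal endothelial markers were above 0 for HF minus LF (median 0.10), against 50.4% of all genes, with medians of 0.24 on HP and -0.03 on NP diets. Their interaction was above 0 for 8 of 8 (56.6% of all genes), 1 at an unadjusted p under 0.05 (4.79% of all genes). Stab2, a scavenger receptor of these cells, had 0.20 on HP and -0.12 on NP diets. The 4 B cell markers had medians of 0.22 and -0.11, the 7 T and NK cell markers 0.13 and -0.02, the 7 stellate cell markers 0.11 and -0.04 and the 6 dendritic cell markers 0.08 and 0.03. The 7 neutrophil markers had -0.02 and 0.03, the 5 cholangiocyte markers -0.11 and -0.05, the 2 erythroid markers -0.05 and 0.09 and the 6 hepatocyte markers -0.07 and 0.04. For the hepatocyte markers the interaction of fat and protein was above 0 for 2 and below 0 for 4. Only Alb among them had an unadjusted p under 0.05, against 2.23% of all genes with a negative interaction at that threshold. Its interaction was -0.31 ± 0.12 (SE, unadjusted p = 0.0353 and adjusted p = 0.706 in limma). In these lists 0 genes passed for fat, for its interactions or for week.

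The summed linear signal of the 10 markers was 2109 to 2609 in the LF-HP pools and 2726 to 3824 in the other 6 diet pools, and 2726 to 3794 in HF pools against 2109 to 3824 in LF pools. For the 6 hepatocyte markers it was 69829 to 69840 in LF-HP and 63007 to 68490 in the other 6. T and NK cell markers summed to 187 to 210 in LF-HP and 202 to 239 in the other 6, B cell markers to 97.1 to 104 and 110 to 128, and neutrophil markers to 124 to 125 and 117 to 141. Endothelial markers summed to 3309 to 3669 in LF-HP and 3308 to 4424 in the other 6. Among the diet pools, the low LF-HP values of the macrophage markers thus stood beside low sums of B cell markers. Hepatocyte sums were highest in LF-HP, but the mean log2 signal of the hepatocyte markers did not set these pools apart. It was 13.47 and 13.41 in the LF-HP pools at 1 and 12 weeks, against 13.45 in both HF-HP pools. Sums of neutrophil, T and NK cell and endothelial markers overlapped between LF-HP and the other diet pools. The B cell, neutrophil and T and NK cell markers were dim, and at such signals a difference may be missed. Over the pools their mean log2 signals were 4.32 to 4.68, 3.98 to 4.17 and 4.51 to 4.80, against a median of 5.85 over all genes. For the hepatocyte markers the week 0 pool, on LF-NP, gave 69949, above both LF-HP pools. At an unadjusted p under 0.05 in limma, 2 of these 6 were higher for HP minus NP (4.59% of all genes). The part that other cell types had in the result was not tested.

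**Figure D4:**
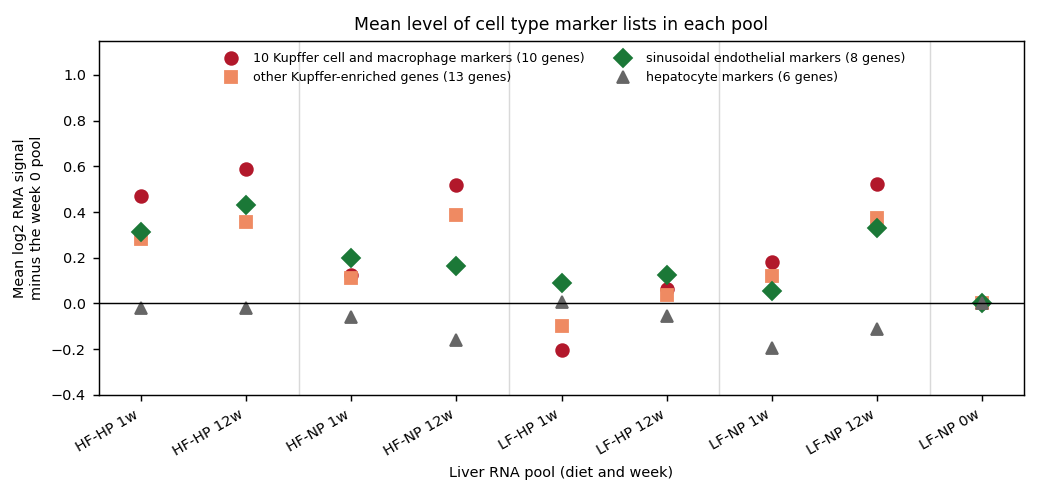
Mean log2 RMA signal of 4 marker lists minus that of the week 0 pool (vertical axis) in each liver RNA pool (horizontal axis), with 1 array per pool and no error bar. The 10 macrophage markers (red circles) run from -0.20 in the LF-HP pool of 1 week to 0.59 in the HF-HP pool of 12 weeks, and the hepatocyte markers (grey triangles) from -0.20 to 0.01 in the diet pools.

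Over the 9 pools, the 45 pairs of members correlated with a median r of 0.83, from 0.15 to 0.98. These correlations describe pools that share diets and arrays and carry no test. Among the 8 members other than Marco and Cd163, the lowest of 28 pairs was 0.78. Correlated with the members' mean, which each gene is itself part of, Cd68 had 0.99, Lyz2 0.97, Clec4f 0.85, Cd163 0.66 and Marco 0.58. Of 19928 other genes, 42 had an r above 0.9 with that mean. The 5 genes most like it were Ly86 (r = 0.98), Cd180 (0.97), C1qc (0.97), H2-DMa (0.97) and Cfp (0.97), of which C1qc and Cfp are also in the list of other Kupffer cell genes. Ly86 and Cd180 encode the MD-1 and RP105 proteins that form a receptor complex on myeloid and B cells, C1qc is a chain of complement C1q, H2-DMa loads peptides on MHC class II, and Cfp is the complement regulator properdin. Their HF minus LF differences were 0.63, 0.64, 0.67, 0.60 and 0.56 on HP diets and -0.03, 0.00, 0.10, 0.03 and -0.04 on NP diets.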

How the data were processed

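RNA from the livers of 5 mice of a group was combined into 1 pool, and each of the 9 pools was hybridised to 1 array, per the labels. The deposited values are log2 signals that the authors computed by RMA (background correction, quantile normalisation and 1 summary value per probe set), with no other scaling added here. They cover 35556 probe sets of the array design, whereas the methods describe a regrouping by Entrez Gene. Scanner files were not used here, so background and saturation were not assessed, and the number of arrays limits the precision.

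The platform annotation gave 21789 probe sets a single gene symbol, 1621 several and 12146 none, and only the first kind was used. Where a gene had several of them (999 genes), the brightest on average stood for it. This left 19938 genes. The 10 members and the 17 other lists (126 entries, 10 of them without a value and not analysed here) were chosen with earlier results of these data known, and lists are described by counts and medians.

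The 8 diet pools were fitted with limma 3.58.1 in R 4.3.3 with fat, protein and week as additive terms (4 residual degrees of freedom, to which the prior adds 3.52), and each interaction was tested in a fit with 1 more term (3 residual degrees of freedom). The week 0 pool has no HF or HP counterpart and was left out of the fits. P-values are two-sided, with Benjamini-Hochberg adjustment over all genes and a threshold of 0.05. No diet and week has a second pool, so p-values measure only the spread between pools of different groups. The fits were tested on simulated data. Named genes were all members, the first gene with a value of each list, any list gene past the test (up to 4 a list) and the 5 genes most correlated with the members' mean. Others, such as Gpnmb, Lyz1, Tyrobp and Fcer1g, were picked with their values in view.

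The alternatives left out genes below the median level, let the prior variance follow the intensity, weighted the arrays, centred each array on its median, averaged all probe sets of a gene, dropped the covariates, set matched comparisons as blocks, used the pools of 1 level of another factor alone, or left out each pool in turn. Promoter windows and gene starts came from RefSeq (GRCm38.p6). Python 3.11.15 with pandas 2.3.3, NumPy 2.4.6 and matplotlib 3.10.9 served for tables and plots.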

Additional observations from a re-analysis of the deposited data

Results flagged for a closer look

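Among the members, 6 values stood apart from the other pools of a level of fat, protein or week (4 pools each, 60 such groups tested by Dixon's ratio at the 95% level). In groups of 4 draws from 1 normal population, chance gives such a value in about 1 of 20. The groups here mix diets or weeks and the members correlate, so that rate need not hold for them. The LF-HP pool of 12 weeks was low among the pools of 12 weeks for Timd4 (6.49, against 6.89 to 6.98 in the others), Cd68 (7.48, against 7.97 to 8.01) and Lyz2 (8.62, against 9.35 to 9.42). The HF-NP pool of 1 week was low among the HF pools for Cd68 (7.37, against 7.90 to 8.01) and Lyz2 (8.71, against 9.35 to 9.42). For Marco the LF-HP pool of 12 weeks was high among the LF pools (5.12, against 4.97 to 4.99). Each of these pools is 1 array, so no second array of the same pool tells whether the value recurs.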

How the results depend on the processing

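No alternative made a member pass in any of the 5 contrasts or a gene pass for HF minus LF, and with 1 pool for each diet and week that says little about stability. The interaction of fat and protein kept its sign for all 10 members in each alternative that could be fitted (Marco drops out under the filter on dim genes), with the member median between 0.52 and 0.82 without single pools. No paired analysis was possible because each diet and week has 1 pool of its own mice, and the matched comparisons as blocks are pairs by diet and week only.

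HF minus LF turned below 0 on NP diets alone for 7 members (Clec4f -0.081, Cd5l -0.10, Marco -0.087, Timd4 -0.038, Adgre1 -0.052, Cd68 -0.049, Lyz2 -0.040) and for Trem2 (-0.077), Stab2 (-0.12), Cd3e (-0.023) and Cd79a (-0.17). On HP diets alone Krt19 was 0.016 and Alb -0.16, at 1 week alone Il1b was -0.075, and at 12 weeks alone Lrat was -0.0099, Cd3e -0.076 and Alb -0.050. With array weights Il1b was -0.0046, and with centred arrays Alb was -0.0061. HP minus NP was above 0 on HF diets alone for Vsig4 (0.18), Cd5l (0.26), Timd4 (0.12), Adgre1 (0.27), Cd68 (0.28), Csf1r (0.19), Cd163 (0.076) and Lyz2 (0.37), at 1 week alone for Vsig4 (0.070), Cd5l (0.031), Cd68 (0.012) and Lyz2 (0.22), and at 12 weeks alone for Cd163 (0.011). These subsets hold 4 pools each, and the cause was not tested.

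Without single pools, HF minus LF ran between -0.037 and 0.15 for Trem2, -0.045 and 0.084 for Il1b, -0.027 and 0.092 for Stab2, -0.016 and 0.11 for Cd3e, -0.13 and 0.20 for Cd79a and -0.046 and 0.071 for Alb. HP minus NP ran between -0.24 and 0.023 for Cd5l, -0.29 and 0.0041 for Cd68, -0.15 and 0.032 for Cd163 and -0.26 and 0.12 for Lyz2. The interaction of fat and week ran between -0.35 and 0.15 for Clec4f, -0.68 and 0.27 for Vsig4, -0.32 and 0.36 for Cd5l, -0.084 and 0.34 for Marco, -0.42 and 0.22 for Timd4, -0.32 and 0.40 for Adgre1, -0.55 and 0.31 for Cd68 and -0.54 and 0.44 for Lyz2. The HF minus LF difference of each member stayed above 0 without each pool in turn, the lowest being 0.0033 for Marco without the HF-HP pool of 1 week.

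At an unadjusted p under 0.05 in limma, HF minus LF held 3 members as higher with the filter on dim genes (2.32% of all genes tested) or centred arrays (1.57%), 8 on HP diets alone (2.68%) and 0 without covariates (1.21%), with blocks (1.56%), on NP diets alone (1.78%), at 1 week alone (1.64%) or at 12 weeks alone (0.572%). HP minus NP held 7 as lower on LF diets alone (5.3%), and 12 weeks minus 1 week 8 as higher on NP diets alone (2.93%) and 7 with blocks (3.02%). Lpl no longer passed for HP minus NP without covariates (adjusted p = 0.249) or with blocks (adjusted p = 0.0763).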
